A study of Mus musculus with 6 samples.

Results

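Core pluripotency factors were compared between 3 groups of 46C cells, a mouse embryonic stem cell (mESC) line that carries a Sox1-GFP reporter. The 9 genes were Pou5f1, Sox2, Nanog, Sall4, Utf1, Zfp281, Lin28a, Trim71 and Tdgf1, taken from 55401 genes in each expression table. They were chosen by name for their place in the pluripotency network, with earlier results of these data known. Control cells stably carried the biotin tag by itself. Rbbp4 OE cells stably expressed Rbbp4 fused to that tag, and Rbbp7 OE cells expressed Rbbp7 fused to it. By the study's methods the cells of every group also held a bacterial biotin ligase, brought in with lentivirus and antibiotic selection, and grew on gelatin in serum with LIF, CHIR99021 and PD0325901. Each group had 2 poly(A) RNA-seq libraries and no further treatment, and no source used here says whether a line was 1 clone or whether the libraries came from separate cultures, so p-values measure the spread between these libraries. The question was whether a gain of RBBP4 or RBBP7, a pair of closely related histone-binding proteins shared by the NuRD, PRC2 and other chromatin complexes, went with other transcript levels of these factors.

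OCT4 (made from Pou5f1) and SOX2 bind side by side on a composite DNA element and, together with NANOG, activate their own genes and many other genes of the pluripotent state. SALL4, UTF1 and ZFP281 act on chromatin and transcription around this core. LIN28A and TRIM71 work on RNA, where LIN28A blocks maturation of the let-7 microRNA family, and the cell-surface protein CRIPTO (made from Tdgf1) is a co-receptor for the growth factor NODAL.

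The sequences before the start sites of the 3 factors that passed the test in any comparison are shown because these are the stretches through which promoter-bound factors act. Promoter windows of 250 bases before to 50 after a start were found in RefSeq (GRCm38.p6) for 8 of the 9 factors, all but Sall4. Each is printed 5′ to 3′ on the + strand, up to the base before the first annotated start, with capitals marking a SOX-OCT composite (CATTGTNATGC, which contains the SOX core CATTGT) or a GC box (GGGCGG), read on both strands.
Nanog, chr6:122707239-122707488: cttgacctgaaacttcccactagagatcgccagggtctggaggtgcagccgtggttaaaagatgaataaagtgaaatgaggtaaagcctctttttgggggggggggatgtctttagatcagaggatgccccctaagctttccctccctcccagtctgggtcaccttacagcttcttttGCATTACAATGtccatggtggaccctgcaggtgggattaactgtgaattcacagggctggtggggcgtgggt
Pou5f1, chr17:35505782-35506017: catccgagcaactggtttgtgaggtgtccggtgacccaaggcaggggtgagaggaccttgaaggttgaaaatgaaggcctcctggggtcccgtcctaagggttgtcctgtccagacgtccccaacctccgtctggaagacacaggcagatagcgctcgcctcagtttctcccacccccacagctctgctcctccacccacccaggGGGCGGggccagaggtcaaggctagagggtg
Utf1, chr7:139943606-139943788: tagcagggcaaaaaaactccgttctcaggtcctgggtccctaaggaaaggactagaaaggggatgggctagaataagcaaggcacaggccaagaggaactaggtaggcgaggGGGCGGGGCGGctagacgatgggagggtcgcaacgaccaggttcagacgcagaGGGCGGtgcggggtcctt
The Nanog stretch held the composite once, on the reverse strand and 72 bases before the start. Of 32851 full RefSeq windows 20 held these letters (0.0609%), the overlapping Nanog windows among them. The Utf1 stretch held 3 GC boxes, of which the first pair overlap, and the Pou5f1 stretch held 1. The full 300-base Utf1 window held 4, and 35.7% of all full windows held a GC box. The octamer ATGCAAAT, found in 1.74% of all windows, was in none of the windows of the 8 factors. These matches are descriptions of the letters and not of bound sites.

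Expression is given in TPM as the authors deposited it, a transcript's length-scaled share of its library. Every library sums to 1000000 TPM, so sequencing depth is not kept in these values and is unknown here. Between 19011 and 19691 genes were above 0 in a library. Rbbp4 measured 146.02 and 147 TPM in the controls and 269.97 and 271.2 TPM in Rbbp4 OE. Rbbp7 measured 238.55 and 237.14 TPM in the controls and 724.74 and 748.06 TPM in Rbbp7 OE, so each transgene label matched its libraries. In Rbbp4 OE Rbbp7 was below both controls, at 207.58 and 217.48 TPM (log2 difference −0.16, limma adjusted p = 0.0775). Rbbp4 was 143.92 and 142.66 TPM in Rbbp7 OE (−0.03, limma adjusted p = 0.803). The controls were further apart from each other than the libraries of either overexpression group, with a median absolute log2 difference of 0.18 against 0.12 in both. Of 42 markers of other cell states (formative, primitive endoderm, trophoblast, mesoderm, neural, 2-cell-like and fibroblast), 22 stayed below 1 TPM in every library. Tcstv1, Tcstv3, Lum and Postn were listed at 0 in all, and Dnmt3b, Cdx2, Eomes, Nes, Tubb3, Col3a1 and Thy1 reached 5 TPM in at least 1 library. Some marker sums did not overlap between the groups. The 6 formative markers, mostly Dnmt3b, summed to 33.7 and 34.0 TPM in the controls, 43.7 and 40.5 TPM with Rbbp4 OE, and 37.5 and 39.0 TPM with Rbbp7 OE. The 5 neural markers, mostly Tubb3, summed to 105 and 104, 120.4 and 122, and 94.95 and 96.8 TPM in the same order. The 6 markers of 2-cell-like cells summed to 1.35 and 0.84 TPM in the controls and at most 0.53 TPM in the other 4 libraries. None of these 6 had a mean of 0.5 TPM, so none was tested, and none was above 0.56 TPM in any library. The 7 primitive endoderm markers summed to 0.97 to 3.29 TPM in all. The 4 mesoderm markers summed to 2.22 and 3.52 TPM in the controls. They summed to 3.96 and 4.29 TPM with Rbbp4 OE and to 4.84 and 5.6 TPM with Rbbp7 OE. Of these 4, 2 were tested and neither passed in any comparison. The 7 trophoblast markers summed to 14.3 and 14.9 TPM in the controls. Their sum was 15.1 and 18.0 TPM with Rbbp4 OE and 17.4 and 17.2 TPM with Rbbp7 OE. It held genes on opposite sides of the controls, neither of which passed the test. Eomes was at 5.32 and 6.01 TPM in the controls, 7.59 and 8.12 TPM with Rbbp4 OE, and 10.6 and 11.2 TPM with Rbbp7 OE (limma adjusted p = 0.0822 and 0.0689 against control), and Cdx2 at 5.49 and 4.88, 2.93 and 3.70, and 2.99 and 3.56 TPM (limma adjusted p = 0.102 and 0.232). The part of these markers' cell types in the levels of the factors was not tested.

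All 9 factors were expressed in all 6 libraries and passed the filter of a mean of 0.5 TPM, over which 14156 genes were tested. Pou5f1 was by far the most abundant, with a mean of 1641 TPM over the 6 libraries, in the 99.3rd percentile of the genes tested. Nanog (471 TPM), Sox2 (351 TPM), Tdgf1 (340 TPM) and Utf1 (267 TPM) followed, then Sall4 (109 TPM). The RNA-binding pair and Zfp281 were much lower, at 27.4 TPM for Trim71, 21.3 TPM for Zfp281 and 13.6 TPM for Lin28a, the last in the 55.6th percentile. Neighbours in this order did not overlap within any group, except Sox2 and Tdgf1, whose libraries overlapped in the control and Rbbp7 OE groups. Together the 9 factors made up 0.307% to 0.337% of each library, with Pou5f1 giving 47.1% to 54.0% of that sum. The ratio of the highest to the lowest library ran from 1.18 for Sall4 to 1.54 for Utf1.

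**Figure D1:**
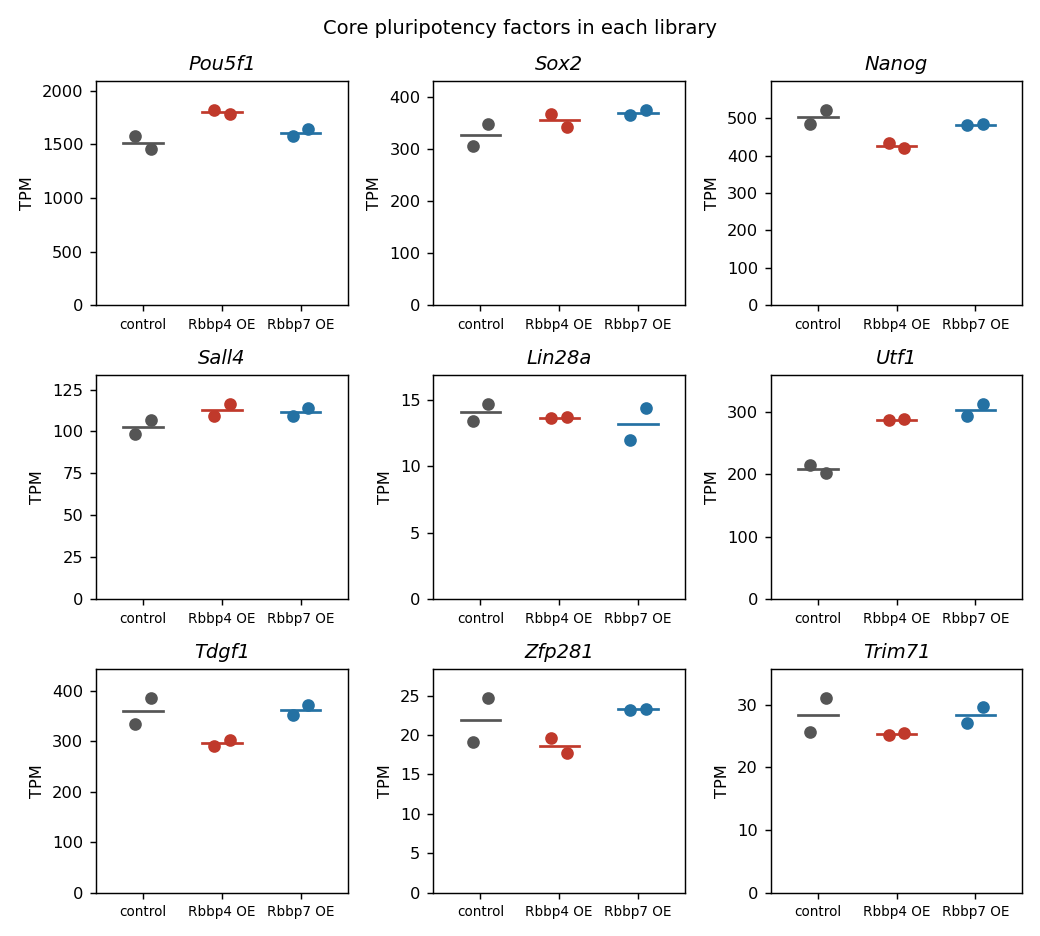
TPM of each core factor (y axis, from 0, a scale of its own in each panel) in control, Rbbp4 OE and Rbbp7 OE cells, with 1 point per library and a bar at the mean of 2 libraries. Utf1 lay at 203 to 215 TPM in the controls and at 287 to 313 TPM in both overexpression groups, while Nanog was lowest in Rbbp4 OE.

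Rbbp4 OE cells differed from control cells in 3 of the 9 factors, with Pou5f1 and Utf1 higher and Nanog lower, and each of the 3 differed by less than 1.5-fold. The test was limma-trend on log2(TPM + 1), with all groups in 1 fit and Benjamini-Hochberg adjustment over all genes tested, and "rose" and "fell" below mean an adjusted p under 0.05. In the same comparison 1609 of 14156 genes passed, 11.4%, of which 3.29% of the genes tested were higher and 8.07% lower. By the thresholds of the study's methods (adjusted p under 0.01 and a fold over 2), none of the 9 was called, against 0.516% of all genes. The study set these thresholds on read counts tested with DESeq2, and here they were set on the limma values. At an unadjusted p under 0.05 there were 4 of 9, against 29.6% of all genes. The libraries of the groups did not overlap for 6 of the 9 factors, 3 higher and 3 lower, and for 57.9% of all genes, 20.8% higher and 37.1% lower.

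Pou5f1 (ENSMUSG00000024406, chr17:35506018-35510772, + strand) encodes OCT4, the POU-domain factor without which the pluripotent state collapses. Its libraries measured 1577 and 1455 TPM in the controls. It was 1816 and 1781 TPM with Rbbp4 OE and 1574 and 1643 TPM with Rbbp7 OE. Both Rbbp4 OE libraries were above every other library, while the Rbbp7 OE libraries overlapped the controls. The mean was 1516 ± 86.1 TPM in the controls (SD, n = 2) and 1799 ± 25.4 TPM in Rbbp4 OE (SD, n = 2), a rise of 0.25 on the log2 scale (SE 0.050, 95% interval 0.12 to 0.37, limma adjusted p = 0.0334). With 1 library left out, the call was kept only without control replicate 1. Such fits also have fewer residual degrees of freedom, and the cause of the losses was not tested. With median-of-ratios scaling and all 6 libraries, the log2 difference of Pou5f1 was 0.35 (limma adjusted p = 0.0569), so it did not pass.

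Sox2 (ENSMUSG00000074637, chr3:34650405-34652461, + strand), the HMG-box partner of OCT4, measured 307 and 349 TPM in the controls. It was 368 and 343 TPM with Rbbp4 OE and 366 and 375 TPM with Rbbp7 OE. The Rbbp4 OE libraries overlapped the controls, and the Rbbp7 OE libraries lay above them. Its log2 difference from control was 0.12 in Rbbp4 OE (95% interval −0.06 to 0.30, limma adjusted p = 0.331) and 0.18 in Rbbp7 OE (−0.0015 to 0.36, limma adjusted p = 0.329). Neither passed the test.

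Nanog (ENSMUSG00000012396, chr6:122707489-122714633, + strand), the homeodomain factor that stabilizes self-renewal, measured 484 and 521 TPM in the controls. It was 434 and 420 TPM with Rbbp4 OE and 483 and 484 TPM with Rbbp7 OE. Both Rbbp4 OE libraries were below all 4 others. The mean was 503 ± 26.0 TPM in the controls (SD, n = 2) and 427 ± 10.03 TPM in Rbbp4 OE (SD, n = 2), a fall with a log2 difference of −0.23 (SE 0.051, 95% interval −0.36 to −0.11, limma adjusted p = 0.0393). The adjusted p was 0.0322 without control replicate 1 and 0.0926 without control replicate 2. It was 0.157 and 0.209 without Rbbp4 OE replicate 1 or 2, and 0.105 without Rbbp7 OE replicate 1 or 2. With median-of-ratios scaling the log2 difference was −0.13 (limma adjusted p = 0.139), while the median of all genes was −0.08 without that scaling. Nanog's transcript shares a stretch of at least 150 bases and 90% identity with transcripts of 330 other genes, over 6.92% to 11.1% of its length, so a part of its reads could be assigned to more than 1 gene.

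The ratio of Pou5f1 to Nanog within a library joins the differences of both genes, so it is no further evidence for either. Pou5f1 TPM was 3.25 and 2.79 times Nanog TPM in the controls, 4.18 and 4.24 times in Rbbp4 OE, and 3.26 and 3.40 times in Rbbp7 OE. The log2 ratio was 0.48 higher in Rbbp4 OE than in control and 0.34 higher than in Rbbp7 OE, with no overlap of libraries. An exact permutation test, two-sided, gave p = 0.333 for each, which is the smallest p that 2 libraries against 2 allow. On the fitted scale the difference of 0.48 became 0.28 after the GC and length correction given further on. Sox2 was 0.633 and 0.669 times Nanog in the controls, 0.848 and 0.818 times in Rbbp4 OE, and 0.758 and 0.774 times in Rbbp7 OE, again with no overlap between the 3 groups. The ratio of Pou5f1 to Sox2 gave no such separation from the controls, which themselves ran from 4.17 to 5.14.

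**Figure D2:**
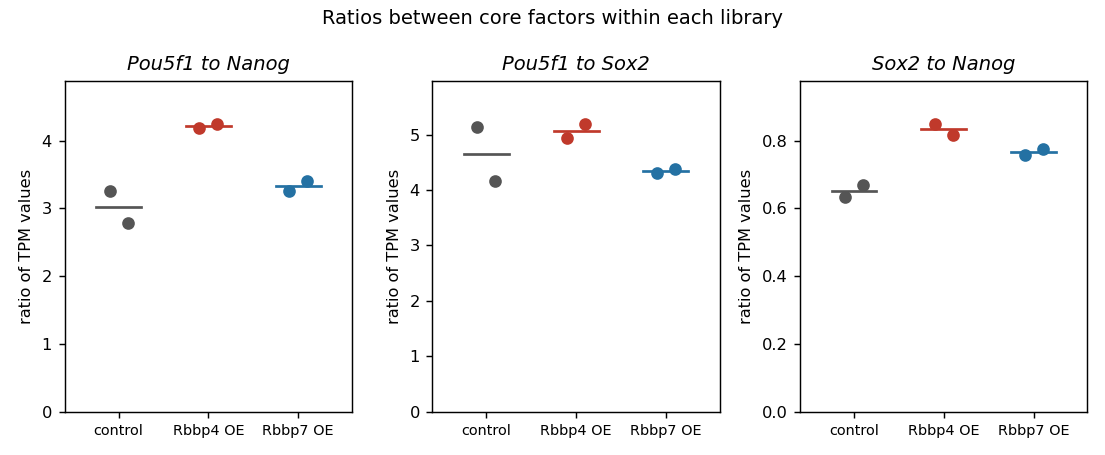
Ratio of TPM values (y axis, from 0) of Pou5f1 to Nanog, Pou5f1 to Sox2 and Sox2 to Nanog in each library, with 1 point per library and a bar at the group mean. The ratio of Pou5f1 to Nanog was 4.18 and 4.24 in Rbbp4 OE and at most 3.40 in the other 4 libraries.

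Utf1 (ENSMUSG00000047751, chr7:139943789-139945112, + strand), which encodes a chromatin-associated regulator restricted largely to pluripotent and germ cells, showed the biggest difference of the 9 in both lines. It measured 215 and 203 TPM in the controls. It was 287 and 288 TPM with Rbbp4 OE and 295 and 313 TPM with Rbbp7 OE. Every overexpression library was above both controls. The group means were 209 ± 8.44, 288 ± 1.04 and 304 ± 13.0 TPM (SD, n = 2 each). In Rbbp4 OE the rise was 0.46 on the log2 scale (SE 0.055, 95% interval 0.33 to 0.59, limma adjusted p = 0.0102), a fold of 1.38. Without control replicate 1 its adjusted p was 0.027. It was 0.0512 without control replicate 2, 0.102 and 0.125 without Rbbp4 OE replicate 1 or 2, and 0.0514 and 0.0518 without Rbbp7 OE replicate 1 or 2.

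Of the other nuclear factors, Sall4 (ENSMUSG00000027547, chr2:168748332-168767943, − strand), a zinc-finger protein that recruits NuRD, measured 98.8 and 107 TPM in the controls. It was 109 and 116 TPM with Rbbp4 OE and 109 and 114 TPM with Rbbp7 OE. Both overexpression groups lay above the controls. The log2 differences were 0.14 (95% interval −0.03 to 0.30, limma adjusted p = 0.244) and 0.12 (−0.05 to 0.28, limma adjusted p = 0.465), and neither passed. Zfp281 (ENSMUSG00000041483, chr1:136624901-136630053, + strand), a zinc-finger factor that promotes exit from the naive state, measured 19.1 and 24.7 TPM in the controls. It was 19.6 and 17.7 TPM with Rbbp4 OE and 23.2 and 23.3 TPM with Rbbp7 OE. Its controls spanned most of the range of the other groups, a log2 gap of 0.35 between replicates. Its log2 difference in Rbbp4 OE was −0.21 (95% interval −0.54 to 0.12, limma adjusted p = 0.347).

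Neither RNA-binding factor passed the test in either line. Lin28a (ENSMUSG00000050966, chr4:134003330-134018841, − strand) measured 13.4 and 14.7 TPM in the controls. It was 13.6 and 13.7 TPM with Rbbp4 OE and 12.0 and 14.4 TPM with Rbbp7 OE, so all groups overlapped. Trim71 (ENSMUSG00000079259, chr9:114507133-114564369, − strand), a RING-domain repressor of mRNAs and itself a classical let-7 target, measured 25.7 and 31.1 TPM in the controls. It was 25.1 and 25.5 TPM with Rbbp4 OE and 27.1 and 29.7 TPM with Rbbp7 OE. The Rbbp4 OE libraries were the lowest, by less than the gap between the controls. The log2 differences in Rbbp4 OE were −0.04 for Lin28a (95% interval −0.33 to 0.26, limma adjusted p = 0.871) and −0.15 for Trim71 (−0.43 to 0.12, limma adjusted p = 0.41). As folds the intervals ran from 0.794 to 1.20 for Lin28a and from 0.742 to 1.09 for Trim71.

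Tdgf1 (ENSMUSG00000032494, chr9:110939603-110946158, − strand), the NODAL co-receptor gene, measured 334 and 386 TPM in the controls. It was 291 and 303 TPM with Rbbp4 OE and 352 and 371 TPM with Rbbp7 OE. Both Rbbp4 OE libraries were below the other 4. The log2 difference from control was −0.27 (SE 0.076, 95% interval −0.46 to −0.09), with an unadjusted p of 0.0116 and a limma adjusted p of 0.0726, so it did not pass. Its reads could be split with a copy, the processed pseudogene Tdgf1-ps1, which is 98.8% identical over 512 bases, 26.5% of Tdgf1's 1932-base transcript. Tdgf1-ps1 was listed at 232 and 268 TPM in the controls. It was 197 and 207 TPM with Rbbp4 OE and 258 and 260 TPM with Rbbp7 OE, which put the 6 libraries in the same order as Tdgf1 did. The sum of both, an alternative added after the data had been seen, differed by −0.29 in Rbbp4 OE (limma adjusted p = 0.0589).

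Rbbp7 OE cells differed from the same controls in 1 of the 9 factors, Utf1, which rose by 0.54 on the log2 scale (SE 0.055, 95% interval 0.40 to 0.67, limma adjusted p = 0.0305), a fold of 1.45. Across all genes 69 of 14156 passed, 0.487% (0.198% higher and 0.29% lower). The other 8 factors had limma adjusted p-values between 0.329 and 0.999, and their differences ran from −0.09 for Lin28a to 0.18 for Sox2. Pou5f1 differed by 0.09 (95% interval −0.04 to 0.21), Nanog by −0.06 (−0.18 to 0.07) and Tdgf1 by 0.01 (−0.18 to 0.20). By the study's thresholds none of the 9 was called, against 0.0353% of all genes. Libraries did not overlap for 4 of the 9 factors, 3 higher and 1 lower, and for 44.5% of all genes, 21.2% higher and 23.4% lower. Leaving out any 1 of the 6 libraries, overexpression and control libraries alike, put the adjusted p of Utf1 between 0.112 and 0.212, with its log2 difference between 0.49 and 0.58.

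The lines were also set against each other, because both comparisons above share their controls and cannot show by themselves that a factor responded differently. None of the 9 factors passed the limma test between Rbbp4 OE and Rbbp7 OE, where 43 of 14156 genes did, 0.304%. None was called by the study's thresholds, against 0.0494% of all genes. At an unadjusted p under 0.05 there were 3, Pou5f1, Nanog and Tdgf1, against 19.0% of all genes. Pou5f1 was 0.16 higher in Rbbp4 OE (95% interval 0.04 to 0.28, limma adjusted p = 0.187), Nanog was 0.18 lower as a log2 difference of −0.18 (−0.30 to −0.05, limma adjusted p = 0.166), and Tdgf1 differed by −0.28 (−0.47 to −0.09, limma adjusted p = 0.156). Utf1 differed by −0.08 between the lines (−0.21 to 0.06, limma adjusted p = 0.474). Libraries did not overlap for 6 of the 9 factors, 1 higher and 5 lower in Rbbp4 OE, and for 54.7% of all genes, with 38.6% of all genes lower. All 9 intervals excluded a 2-fold difference in each of the 3 comparisons, and 8 of 9 excluded a 1.5-fold difference.

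**Figure D3:**
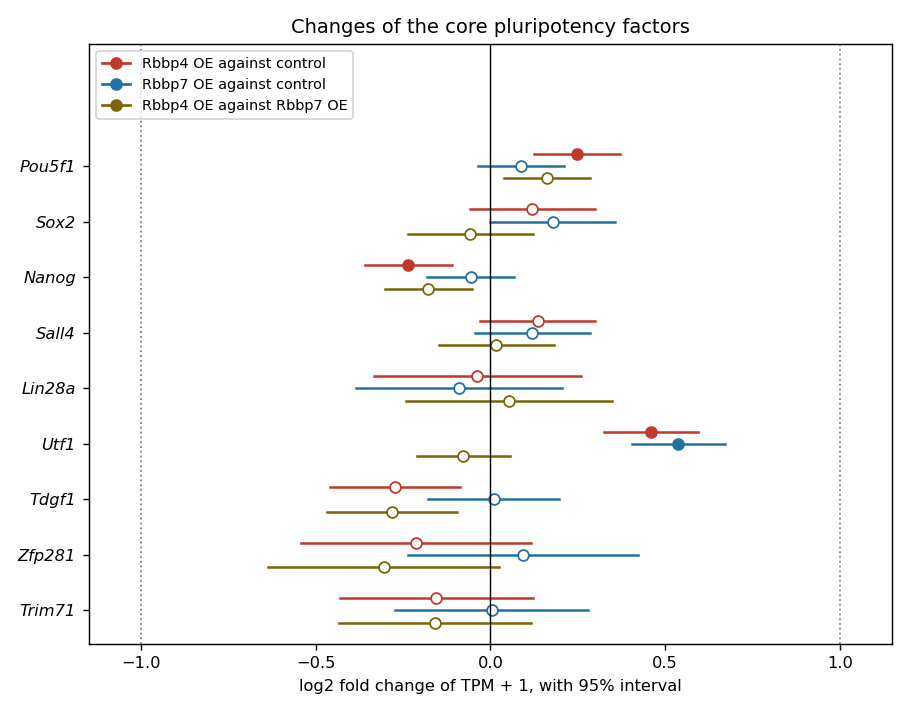
Log2 fold change of TPM + 1 (x axis) of each core factor, with the limma 95% interval as a line and 1 colour per comparison. Filled points had an adjusted p under 0.05 and open points did not, the legend's filled points only naming colours, and the dotted lines mark a 2-fold difference. The filled points are Pou5f1, Nanog and Utf1 in Rbbp4 OE and Utf1 in Rbbp7 OE, and every interval lies within 2-fold.

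The differences of the factors in Rbbp4 OE were ordered much like the GC content of their transcripts. Medians of all genes, taken by decile of GC content, also tended to rise with it. The median log2 difference of all genes from control rose from −0.18 in the decile of genes with the lowest GC content (25.65% to 41.42%) to 0.085 in the highest decile (58.09% to 75.46%). Utf1 (63.5% GC) lay in the highest decile and Pou5f1 (57.6%) in the next, where the median was 0.04. Zfp281 (43.1%), Tdgf1 (45.3%) and Nanog (45.8%) lay in low deciles, with medians of −0.19 and −0.18. Trim71, at 53.8% GC and a log2 difference of −0.15, lay lower than its place in this order. In Rbbp7 OE the same medians ran from −0.04 to 0.09. With GC content and transcript length removed by splines, an alternative added after the data had been seen, the Rbbp4 OE differences were 0.09 for Pou5f1 (limma adjusted p = 0.152), −0.19 for Nanog (0.0859) and 0.26 for Utf1 (0.0562), and none of the 9 passed. With each library also centred on its median, 2 of the 9 passed, Utf1 at 0.36 (limma adjusted p = 0.0359) and Sall4 at 0.28 (0.0482), while Pou5f1 was 0.19 (0.122) and Nanog −0.09 (0.345). Utf1 in Rbbp7 OE became 0.42 (limma adjusted p = 0.0644) and, with centring, 0.44 (0.0822).

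**Figure D4:**
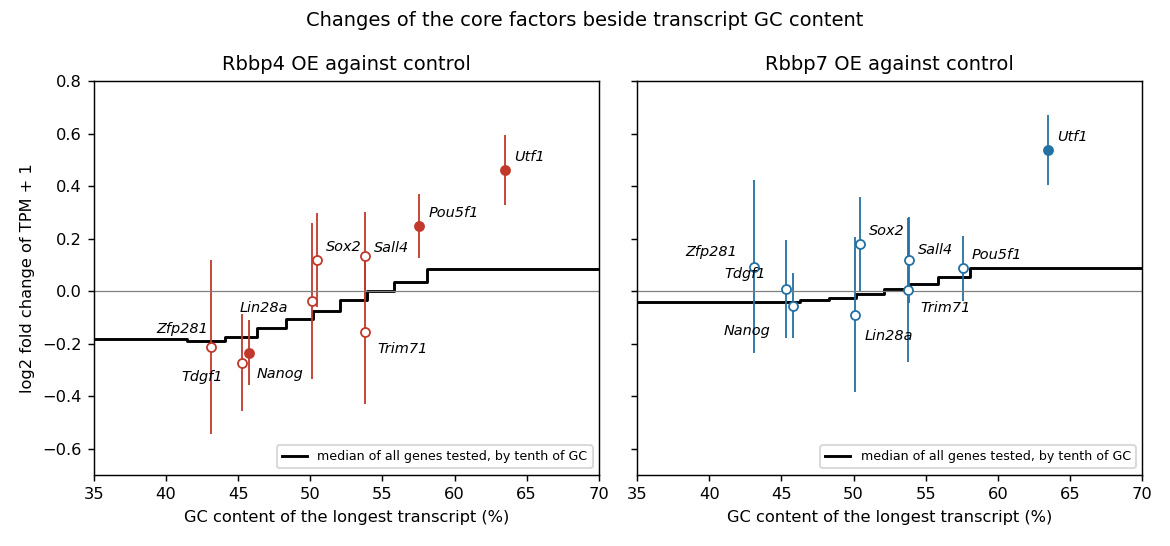
Log2 fold change of TPM + 1 of each core factor with its 95% interval (y axis) against the GC content of its longest transcript (x axis), for each overexpression line against control. The black steps give the median of all 14156 genes tested by decile of GC content, filled points had an adjusted p under 0.05, and Utf1 stands highest in both panels at 63.5% GC.

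Of the naive network around the core, 3 of 12 genes passed the test in Rbbp4 OE, against 11.4% of all genes. Among all genes tested, 3.29% rose and 8.07% fell. Of these 12 (Esrrb, Klf2, Klf4, Klf5, Tfcp2l1, Zfp42, Tbx3, Prdm14, Nr0b1, Dppa3, Nr5a2 and Gbx2), 2 rose and 1 fell, with a median log2 difference of 0.01 against −0.08 over all genes. Klf2, a Krüppel-like factor maintained by MEK inhibition, measured 284 and 281 TPM in the controls and 402 and 386 TPM in Rbbp4 OE, and rose by 0.48 (limma adjusted p = 0.00884). After the GC and length correction its difference was 0.28 (limma adjusted p = 0.0431). Gbx2, a homeobox target of LIF signalling, rose by 0.66 (limma adjusted p = 0.0106), from 31.8 and 30.3 TPM to 48.0 and 51.6 TPM. Tfcp2l1, a factor that sustains naive self-renewal, differed by −0.52 (limma adjusted p = 0.033), from 103 and 127 TPM to 82.0 and 76.8 TPM. None of the 12 passed in Rbbp7 OE or between the lines.

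Among 15 known targets of the core factors, 1 rose and 2 fell in Rbbp4 OE, against 3.29% and 8.07% of all genes. Their median was −0.15 against −0.08 over all genes, and −0.056 against −0.065 after the GC and length correction. Zscan10, a zinc-finger partner of SOX2 and OCT4, rose by 0.41 (limma adjusted p = 0.0173), from 107 and 104 TPM to 140 and 141 TPM. Fgf4, the growth factor gene driven by a SOX-OCT element, differed by −0.45 (limma adjusted p = 0.0255), from 63.6 and 72.4 TPM to 49.3 and 49.5 TPM. Gdf3, a TGF-beta family ligand gene near Nanog, differed by −0.32 (limma adjusted p = 0.0249), from 94.9 and 99.0 TPM to 77.1 and 77.6 TPM. In Rbbp7 OE, Fgf4 was 50.5 and 52.3 TPM and Gdf3 75.6 and 75.0 TPM, also below both controls, but at adjusted p-values of 0.124 and 0.0785 in limma.

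Around LIN28A and TRIM71, 16 of 17 genes were tested, among them processing enzymes of microRNAs, let-7 targets and targets of TRIM71. The list's median in Rbbp4 OE was −0.14 against −0.08 over all genes, and −0.054 against −0.065 after the GC and length correction. In Rbbp4 OE 2 of the 16 fell, as did 8.07% of all genes. These were the mRNA-binding proteins and let-7 targets Igf2bp1, at 79.1 and 91.5 TPM in the controls against 62.2 and 61.2 TPM (log2 difference −0.46, limma adjusted p = 0.027), and Igf2bp3, at 28.7 and 39.9 TPM against 18.4 and 18.0 TPM (−0.86, limma adjusted p = 0.0252). Igf2bp2 differed by 0.14 in Rbbp4 OE (limma adjusted p = 0.332), so it did not pass. Of the 16 genes 5 were higher and 11 lower, against 5802 and 8352 of all genes tested. The let-7 microRNAs themselves were not analysed here.

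The NODAL pathway, in which CRIPTO works, held the one listed gene called by the study's thresholds. Lefty2, a secreted inhibitor of NODAL, measured 93.5 and 104 TPM in the controls. It was 39.8 and 38.2 TPM with Rbbp4 OE and 80.7 and 87.2 TPM with Rbbp7 OE. It fell in Rbbp4 OE against control, with a log2 difference of −1.32 (SE 0.080, limma adjusted p = 0.00244), a fold of 0.402. It also fell against Rbbp7 OE, as did 0.127% of all genes. Smad2, a signal transducer of the pathway, differed by −0.56 from control (limma adjusted p = 0.0333), from 23.2 and 28.2 TPM to 16.9 and 17.1 TPM, and by −0.37 after the GC and length correction (limma adjusted p = 0.0508). Of the 11 genes, 2 fell and none rose, where 8.07% of all genes fell. The list's median was −0.19 against −0.08 over all genes, and −0.13 against −0.065 after the GC and length correction. Nodal itself measured 51.7 and 55.7 TPM in the controls and 64.4 and 63.4 TPM in Rbbp4 OE (log2 difference 0.25, limma adjusted p = 0.078).

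The NuRD subunits that carry RBBP4 and RBBP7 were listed beside the factors because SALL4 and ZFP281 bind this complex. In Rbbp4 OE, Mta1 rose by 0.44 (limma adjusted p = 0.032), from 59.4 and 69.4 TPM to 89.1 and 85.3 TPM. Mbd3 rose by 0.24 (limma adjusted p = 0.0447), from 252 and 233 TPM to 288 and 284 TPM. The deacetylase gene Hdac1 fell, with a log2 difference of −0.35 (limma adjusted p = 0.0153), from 190 and 199 TPM to 152 TPM in both libraries. That was 2 risen and 1 fallen of 10, against 3.29% and 8.07% of all genes, with a median of 0.10 against −0.08 over all genes. After the GC and length correction neither rise passed, with differences of 0.31 for Mta1 (limma adjusted p = 0.108) and 0.05 for Mbd3 (0.525), whose GC content is 62.9%.

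Family relatives of the factors were mostly low. Of 10 tested, 1 fell in Rbbp4 OE and none rose, against 8.07% and 3.29% of all genes. It was Sall1, which differed by −0.75 (limma adjusted p = 0.0326), from 40.4 and 55.8 TPM to 27.0 and 28.8 TPM. The list's median was 0.05 against −0.08 over all genes. Lin28b, the paralog of Lin28a, was at 1.33 TPM or less in every library, and Cfc1, the paralog of Tdgf1, was listed at 0 in 5 of 6. Among the markers of other states, Thy1, a surface protein of fibroblasts and other cells, rose by 0.96 in Rbbp4 OE (limma adjusted p = 0.0192), from 4.13 and 5.02 TPM to 8.87 and 10.8 TPM, while Lum and Postn were listed at 0. Thy1 made up most of the sum of the 7 fibroblast markers in the controls (4.48 and 5.59 TPM) and in Rbbp4 OE (9.09 and 11.7 TPM), where Col1a1 was at 0.20 and 0.42 TPM against 0.29 and 0.46 TPM in the controls. In Rbbp7 OE the sum was 15.7 and 8.75 TPM, with 6.39 TPM of the higher value from Col3a1, which was 0.06 TPM in the other library. There Thy1 was 7.01 and 7.04 TPM, Col1a1 0.81 and 0.86 TPM and Col1a2 1.3 and 0.79 TPM, each above both controls. Dcn was 0.21 and 0 TPM, against 0 in both controls. Of these 7 markers 3 were tested, and none passed in Rbbp7 OE against control.

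Calls of the listed genes in Rbbp4 OE were also lost in fits with 1 library left out, which have fewer residual degrees of freedom. The cause was not tested. Lefty2 kept its call without any 1 library but Rbbp4 OE replicate 2, where its limma adjusted p was 0.0574. Klf2 kept it without control replicate 1 or either Rbbp7 OE library, with an adjusted p of up to 0.111 without the others in limma. Mta1 kept it without either control, and Thy1 in no such fit. The other listed genes that passed kept it only without control replicate 1, with an adjusted p of at most 0.207 otherwise (Tfcp2l1, limma). With GC correction and centring the calls of Tfcp2l1 (−0.26, limma adjusted p = 0.0623), Igf2bp1 (−0.24, 0.0765), Gdf3 (−0.22, 0.0757), Smad2 (−0.28, 0.0905) and Mbd3 (0.14, 0.159) were lost, and that of Mta1 was kept (0.0427). With median-of-ratios scaling those of Gdf3 (0.0593) and Mbd3 (0.0528) were lost.

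**Figure D5:**
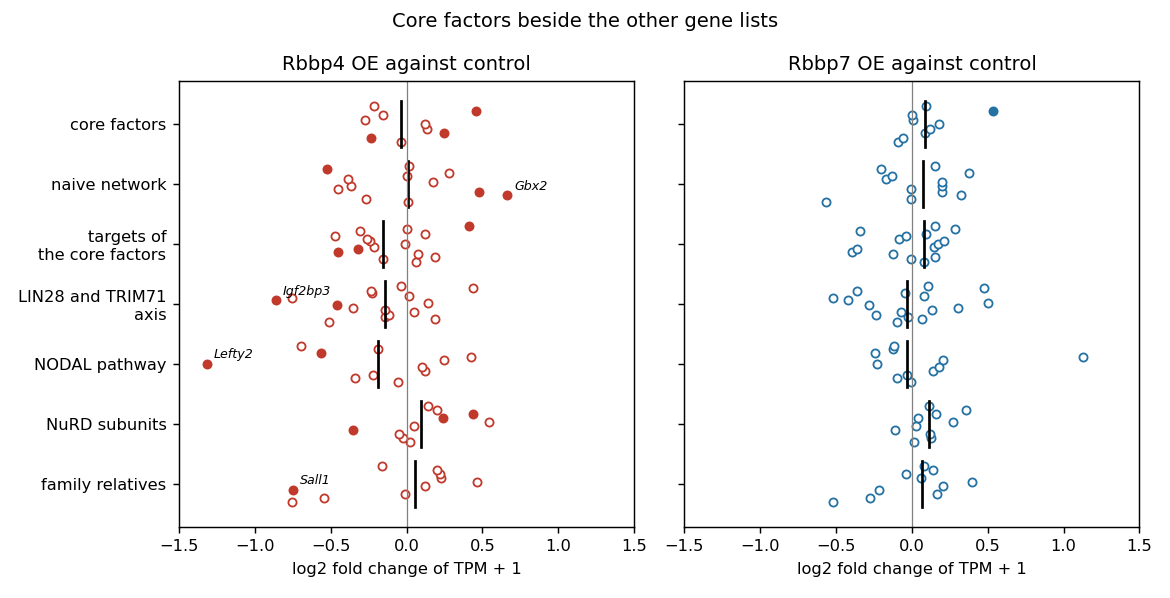
Log2 fold change of TPM + 1 (x axis) of each tested gene of the core factors and 6 other lists (rows), for each overexpression line against control. Each point is a gene, filled where the adjusted p was under 0.05, and the black bar is the list's median. In Rbbp4 OE Lefty2 lies farthest from 0, at −1.32, and in Rbbp7 OE the filled point is Utf1.

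The genes whose pattern over the 6 libraries came nearest to that of the 3 core factors were sought among 8564 protein-coding genes with a mean of at least 5 TPM. Likeness was the distance between centred log2(TPM + 1) values, where 0 means the same pattern. No background distance was set beside these values, so they are descriptions and do not show shared regulation. Nearest to Pou5f1 were Bax (distance 0.043), Mbd3 (0.068) and Uchl3 (0.068). Nearest to Sox2 were Orc3 (0.028), Hspa4 (0.036) and Adpgk (0.038), and nearest to Nanog were Arhgap23 (0.026), Tra2b (0.027) and Hsp90aa1 (0.032).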

How the data were processed

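The authors trimmed reads with Trim_galore, aligned them to mm10 with STAR, estimated expression with RSEM and deposited 1 table of TPM values per library, which keeps no depth, so no counting interval is given. Groups came from the sample labels. Gene names and coordinates were taken from GENCODE M21 on GRCm38 (55141 of 55401 genes matched by identifier without version). The study's annotation is a later release. The longest transcript of each gene gave its GC content and length.

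Values were tested as log2(TPM + 1) with limma 3.58.1 (trend, R 4.3.3) over genes with a mean of at least 0.5 TPM, with 3 residual and 3.103 prior degrees of freedom. This scale understates changes of low genes. The test was run on simulated data first. Copies were searched with blastn 2.17.0 at 95% identity over 80% of either transcript. The factors and gene lists were chosen with earlier results of these data known. Named outside the factors were Rbbp4, Rbbp7, list genes with an adjusted p under 0.05 in any comparison (at most 6 a list), markers at 0 throughout or at 5 TPM in any library, and the 3 nearest patterns of Pou5f1, Sox2 and Nanog. Nodal, Igf2bp2, Lin28b, Cfc1, Col1a1, Col1a2 and Dcn were named after their values were seen, as were Fgf4 and Gdf3 in Rbbp7 OE. Alternatives were pseudocounts of 0.1 and 5, other filters and scalings, 2-group fits, a replicate block, other thresholds, a robust trend and each library left out. GC and length corrections and the summed Tdgf1 copy were added after the data had been seen.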

Additional observations from a re-analysis of the deposited data

Results flagged for a closer look

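Lefty2 was the one gene among the factors and listed genes whose level differed between the overexpression lines by the test of the lines against each other. Its log2 fold change in Rbbp4 OE against Rbbp7 OE was −1.09 (SE 0.080, limma adjusted p = 0.0117), at 39.8 and 38.2 TPM against 80.7 and 87.2 TPM, with both Rbbp4 OE libraries below all 4 others. Over the 18 alternatives its difference stayed between −1.14 and −0.99, and 11 of them kept an adjusted p under 0.05. With any 1 of the 6 libraries left out it did not pass, with an adjusted p of up to 0.131. Against control the difference in Rbbp7 OE was −0.23 (limma adjusted p = 0.257).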

How the results depend on the processing

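In Rbbp4 OE against control 3 factors passed. The number was 1 with no filter, with median-of-ratios scaling and with the replicate block, 0 in 2-group fits, with the GC and length correction and at an adjusted p under 0.01 with or without a fold of 2, 2 with that correction and centring (Utf1 and Sall4), and 0 to 4 with 1 library left out (4 without control replicate 1, 0 without any of the other 5). In Rbbp7 OE against control 1 passed, and 0 did with no filter, median-of-ratios scaling, the replicate block, 2-group fits, either GC correction, either stricter threshold or any library left out (0 to 0). Between the lines 0 passed throughout. The cause of these losses was not tested.

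Replicate numbers did not pair the libraries (correlations of deviations −0.03, 0.03 and −0.03), and the replicate block left 900 of 1609, 9 of 69 and 9 of 43 genes. Over all settings these counts ran from 47 to 2039, 1 to 137 and 8 to 98. In Rbbp4 OE 466 genes were higher and 1143 lower, which became 684 and 738 with median-of-ratios scaling, 677 and 821 with quantile normalization and 611 and 575 with GC correction and centring, where the median of all genes moved from −0.08 to 0.03.

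Of 489 alternative values of the factors, 423 kept direction and side, 42 lost and 3 gained the threshold, and 21 changed sign, none of them past the threshold. For Rbbp4 OE against control, Lin28a became 0.057 with median-of-ratios scaling, 0.083 with quantile normalization, 0.039 with GC correction and 0.14 with centring as well, where Zfp281 became 0.061. With 1 library left out Lin28a ran from −0.098 to 0.022, positive without control replicate 2. For Rbbp7 OE against control, GC correction with centring gave 0.0015 for Nanog and −0.014 for Trim71 (−0.028 uncentred). With 1 library left out Lin28a ran from −0.21 to 0.033 (positive without Rbbp7 OE replicate 1), and Tdgf1 from −0.094 to 0.11, Zfp281 from −0.083 to 0.27 and Trim71 from −0.13 to 0.14. These 3 were negative without control replicate 1, and Tdgf1 and Trim71 also without Rbbp7 OE replicate 2. Between the lines, median-of-ratios scaling gave 0.039 for Sox2 and 0.019 for Utf1, and GC correction with centring 0.0078 for Trim71. With 1 library left out Sall4 ran from −0.028 to 0.060 and Lin28a from −0.071 to 0.18, both negative without Rbbp7 OE replicate 1 and Sall4 also without Rbbp4 OE replicate 2. The log2 ratio of Pou5f1 to Sox2, 0.13 in Rbbp4 OE and −0.09 in Rbbp7 OE against control, ran from −0.023 to 0.28 and from −0.24 to 0.060, changing sign without control replicate 2 and 1 respectively. Depth is unknown, so no limit of detection is given.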
